A study of Mus musculus with 5 samples.

Results

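Pericytes and vascular smooth muscle cells are the contractile cells that wrap brain vessels, and 10 genes by which they are known were followed in GL261-bearing mice with and without ultrasound-mediated blood-brain barrier opening (UMBO). The genes were chosen by name: Pdgfb and its receptor Pdgfrb, the pericyte genes Rgs5, Kcnj8, Abcc9, Anpep and Vtn, the receptor gene Notch3, and the contractile genes Acta2 and Tagln. All 10 were found by symbol among the 55573 genes of the count tables. Every one of them also had enough reads to be tested, together with 23592 genes in all.

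Endothelial cells release PDGF-B, and mural cells (pericytes and smooth muscle cells) carry its receptor, which draws them to the vessel and keeps them there. Pericytes cover the capillaries and help to induce and hold the blood-brain barrier. Smooth muscle cells surround arteries and arterioles and set their width through actin and its associated proteins, and NOTCH3 signaling keeps these cells differentiated. UMBO acts on the vessel wall itself, through microbubbles that oscillate in the ultrasound field, so the mural genes belong to the tissue that is treated.

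RNA came from the right hemisphere of female C57BL/6 mice, which had received GL261 glioma cells carrying a luciferase/mKate2 vector in the right caudate nucleus-putamen at an age of 7 to 8 weeks. The vehicle group (3 libraries) received a dilution buffer. The UMBO group (2 libraries) was sonicated under isoflurane after intravenous SonoVue microbubbles. In both groups the sessions were on days 21 and 24, and tissue was taken 24 h after the last one. Each library is 1 mouse and holds the whole hemisphere, so tumor, brain, blood and vessel cells all contribute to it. In such a library fewer cells of a type and less RNA per cell cannot be told apart. Levels are given as CPM, the reads of a gene scaled to a common library size after TMM normalization.

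Total counts lay between 59736771 and 86164159 per library, and the members had between 211 reads (Kcnj8 in vehicle replicate 2) and 12439 reads (Rgs5 in UMBO replicate 1). Every pair of libraries differed beyond sampling noise (chi-square divided by genes, 58.1 to 727), and UMBO replicate 2 stood apart from the other libraries at 133.7 on the largest component of variation, where the others lay between -68.4 and 17.0. Its neuronal markers (9 genes, none at 0) summed to 3062 CPM against 6046 to 9174 CPM in the other libraries. Values for that library are therefore shown beside each result, and results are given with and without it where it decided them.

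No member passed the test between UMBO and vehicle. By edgeR's quasi-likelihood test 0 of the 10 had an adjusted p below 0.05, against 0 of 23592 genes, or 0%, in the whole table. At an unadjusted p under 0.05 there was 1 member, Pdgfb, on the higher side, and 0 on the lower side. Over all genes tested these shares were 5.3% and 2.06%. The DESeq2 Wald test gave 0 members at an adjusted and 0 at an unadjusted p under 0.05, against 40 of 22403 genes with an adjusted p (0.179%) and 2738 of 40434 genes with a p (6.77%). For Pdgfb and Kcnj8 the UMBO libraries both exceeded the whole vehicle range, which is 2 of 10 members against 11.5% of all genes. For 0 members did they both fall below it, against 11.4% of all genes. The fitted log2 fold change was above 0 for 7 members and below 0 for 3. Its median was 0.26, against 0.01 for all genes, and it was 0.17 without vehicle replicate 1, 0.15 without UMBO replicate 1 and 0.11 without UMBO replicate 2.

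**Figure D1:**
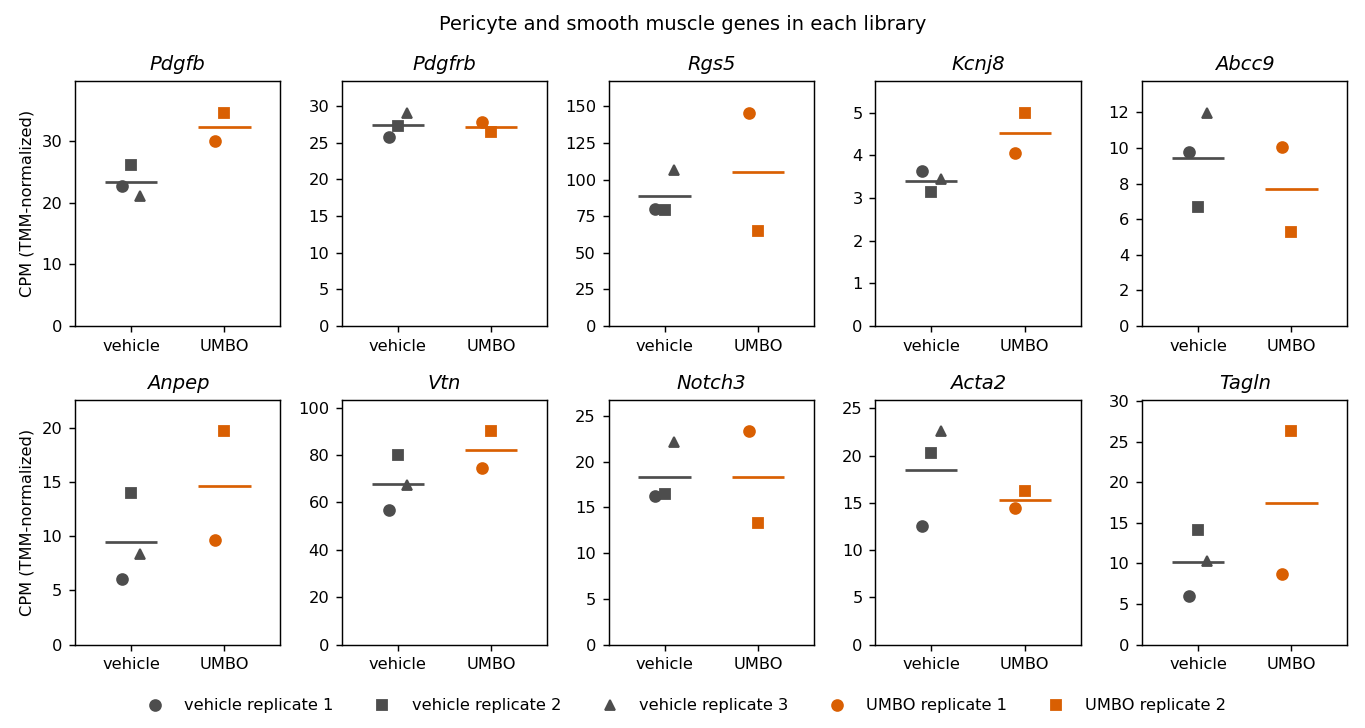
Level of each of the 10 genes in CPM (vertical axes, starting at 0) in the 3 vehicle and 2 UMBO libraries; points are single mice and horizontal lines group means. Both UMBO mice sit above all vehicle mice for Pdgfb and Kcnj8, and the UMBO mice lie far apart for Rgs5, Anpep and Tagln.

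Pdgfb was the member with the smallest p and Pdgfrb the one that varied least. Pdgfb (chromosome 15 of GRCm38, 79995874 to 80014977, reverse strand) encodes the ligand that brain endothelial cells use to recruit pericytes. Its level was 22.8, 26.1 and 21.0 CPM in vehicle replicates 1 to 3, and 29.9 and 34.5 CPM in UMBO replicates 1 and 2. The lowest UMBO library was thus above the highest vehicle library. The group values were 23.3 ± 2.56 CPM (SD, n = 3) with vehicle and 32.2 ± 3.24 CPM (SD, n = 2) with UMBO. The log2 fold change was 0.47 with a standard error of 0.178 and a 95% interval of 0.034 to 0.91. By edgeR the unadjusted p was 0.0385 and the adjusted p 0.497. The unadjusted p by edgeR rose to 0.114 or 0.140 when vehicle replicate 1 or 3 was removed, and it was 0.0485 without vehicle replicate 2. In that last fit 2164 of 23120 genes were higher and 510 lower at an unadjusted p under 0.05. Removing a UMBO library leaves 1 UMBO mouse, so no p is given for it. The log2 fold change of Pdgfb stayed between 0.37 and 0.59 when any single library was removed.

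Pdgfrb (chromosome 18, 61045150 to 61085061) encodes the receptor and is the most used marker of brain pericytes. It was at 25.8, 27.3 and 29.0 CPM with vehicle and at 27.9 and 26.5 CPM with UMBO, so both UMBO values lay inside the vehicle range. The highest library was 1.12 times the lowest, which made Pdgfrb the most even of the 10 genes. The log2 fold change was -0.012 (standard error 0.157, 95% interval -0.40 to 0.37) and the adjusted p by edgeR 0.972. Its sign changed with scaling by library size alone (0.10) and in other settings, always at a size below its standard error. The ratio of ligand to receptor, both in CPM and not corrected for length, was 0.882, 0.954 and 0.723 with vehicle and 1.07 and 1.30 with UMBO. This is a log2 difference of 0.48, close to the change of the ligand alone.

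Kcnj8 and Abcc9 encode the pore and the regulatory subunit of the same ATP-sensitive potassium channel, which relaxes mural cells when it opens. The genes are neighbors on chromosome 6 of GRCm38, 16247 bases apart and both on the reverse strand, with Kcnj8 at 142564837 to 142571614 and Abcc9 at 142587862 to 142702315. Kcnj8 was at 3.64, 3.13 and 3.45 CPM with vehicle and at 4.06 and 4.99 CPM with UMBO. The groups did not overlap, although UMBO replicate 1 was only slightly above the highest vehicle library. Its log2 fold change was 0.41 (standard error 0.262), with an adjusted p of 0.498 by edgeR, and removing any single library kept it between 0.26 and 0.52.

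Abcc9 ordered the libraries differently from its partner. Its level was 9.76, 6.66 and 12.0 CPM with vehicle and 10.1 and 5.30 CPM with UMBO, so that UMBO replicate 1 lay within the vehicle range and UMBO replicate 2 below it. The log2 fold change was -0.30 (standard error 0.387, adjusted p 0.678 by edgeR). It was -0.87 without UMBO replicate 1 and 0.091 without UMBO replicate 2. Abcc9 shares 158 of its 8373 exonic bases with the antisense gene 5330439B14Rik. Since strand counting is not stated, reads in that stretch cannot be told apart from that gene's. The ratio of Kcnj8 to Abcc9 on the CPM scale was 0.374, 0.472 and 0.290 with vehicle, 0.405 in the first UMBO library and 0.943 in the other. Only the last of these lay outside the vehicle range.

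For Rgs5 and Notch3 the UMBO mice lay at opposite ends, replicate 1 highest and replicate 2 lowest of all libraries. Rgs5 (chromosome 1, 169655501 to 169695813) encodes a regulator that dampens G protein signaling and is among the strongest pericyte transcripts of the brain. It was at 79.8, 79.0 and 106.9 CPM with vehicle, at 145.5 CPM in UMBO replicate 1 and at 64.7 CPM in UMBO replicate 2. The highest and the lowest of the 5 values were both UMBO libraries. Their SD of 57.1 CPM was larger than the group difference, and the log2 fold change of 0.25 (standard error 0.365, adjusted p 0.718 by edgeR) was 0.72 without UMBO replicate 2 and -0.48 without UMBO replicate 1.

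Notch3 (chromosome 17, 32120820 to 32166852, reverse strand) encodes the NOTCH receptor of mural cells. It was at 16.3, 16.4 and 22.1 CPM with vehicle, 23.3 CPM in UMBO replicate 1 and 13.3 CPM in UMBO replicate 2, the same arrangement as for Rgs5. The group means were 18.3 CPM each, and the log2 fold change was 0.0018 (standard error 0.298, 95% interval -0.73 to 0.73), with an adjusted p of 0.998 by edgeR. That value was 0.35 without UMBO replicate 2 and -0.49 without UMBO replicate 1. Its sign also turned with DESeq2's size factors (-0.0042) and in other settings. Notch3 shares 488 exonic bases with the antisense gene Gm17276.

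Anpep and Vtn were higher on average with UMBO, but within the spread. Anpep (chromosome 7, 79821803 to 79861059, reverse strand) encodes the aminopeptidase CD13, a surface marker of brain pericytes that myeloid cells also carry. It was at 6.06, 13.96 and 8.30 CPM with vehicle and at 9.68 and 19.7 CPM with UMBO. Vehicle replicate 2 lay above UMBO replicate 1. The log2 fold change was 0.64 (standard error 0.452, adjusted p 0.512 by edgeR), 1.06 without vehicle replicate 2 and 0.036 without UMBO replicate 2. Monocyte and macrophage markers ordered the vehicle mice in the same way: the 10 genes, none at 0, summed to 53.5, 187 and 84.8 CPM in vehicle replicates 1 to 3, and to 167 and 598 CPM in the UMBO libraries. Their part in the Anpep values was not tested.

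Vtn (chromosome 11, 78499091 to 78502324) encodes vitronectin, a secreted matrix protein made by brain pericytes. It was at 56.6, 79.9 and 67.3 CPM with vehicle and at 74.6 and 89.9 CPM with UMBO. UMBO replicate 1 lay between the upper vehicle values. Its log2 fold change was 0.28 (standard error 0.21, adjusted p 0.526 by edgeR) and kept between 0.14 and 0.44 when any single library was removed.

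**Figure D2:**
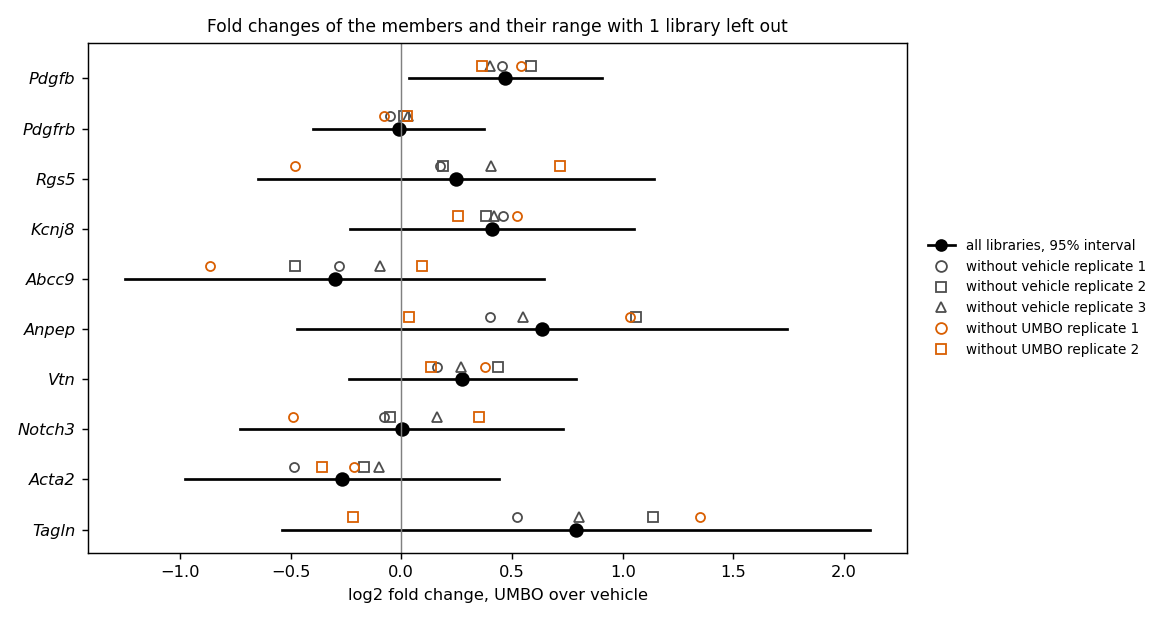
Log2 fold change of each gene, UMBO over vehicle (horizontal axis): filled points with 95% intervals use all 5 libraries, and open symbols leave out 1 library each. The interval lies above 0 for Pdgfb alone, and leaving out a UMBO library moves Pdgfrb, Rgs5, Notch3, Abcc9 and Tagln across 0.

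The contractile members had log2 fold changes of opposite sign, neither of which passed the test. Acta2 (chromosome 19, 34241090 to 34255590, reverse strand) encodes smooth muscle alpha-actin, the actin of the arterial wall. Its level was 12.5, 20.3 and 22.5 CPM with vehicle and 14.4 and 16.2 CPM with UMBO, both within the vehicle range. The log2 fold change was -0.27 (standard error 0.289, adjusted p 0.623 by edgeR) and lay between -0.48 and -0.099 with each library left out. Tagln (chromosome 9, 45929619 to 45936058, reverse strand) encodes transgelin, an actin-binding protein of the same cells. It was at 5.98, 14.1 and 10.3 CPM with vehicle, at 8.72 CPM in UMBO replicate 1 and at 26.3 CPM in UMBO replicate 2. Its log2 fold change of 0.79 (standard error 0.543, adjusted p 0.507 by edgeR) was thus set by UMBO replicate 2, and it was -0.22 without that library and 1.35 without UMBO replicate 1.

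The ratio of Tagln to Acta2 on the CPM scale was 0.479, 0.695 and 0.458 with vehicle and 0.606 in UMBO replicate 1, but 1.62 in UMBO replicate 2. The exonic overlaps of Tagln with Pcsk7 and with Gm48529 on the other strand add up to 1349 bases, so its reads are uncertain. In this sum a base shared with both genes is counted again. Proliferation markers (10 genes, none at 0) summed to 50.0, 108 and 36.5 CPM in vehicle replicates 1 to 3. In UMBO replicates 1 and 2 they summed to 114 and 465 CPM. Both UMBO libraries were above every vehicle library for 7 of these genes, against 11.5% of all genes. Pdgfb ordered the libraries in the same way as these sums, and Tagln did not. The part of proliferating cells in the values of Tagln and Pdgfb was not tested.

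Contractile genes are known to share the CArG box, the element that serum response factor binds together with myocardin. The motif was searched, with 1 of its 6 inner positions left free and on both strands at once since it is its own reverse complement, in the 250 bases before gene starts in the RefSeq table for GRCm38.p6. It was present in 8.59% of the 32851 promoters. The table held 7 of the 10 members, of which 1, Acta2, had the motif. Pdgfb, Pdgfrb and Tagln were not in it, so whether they have the motif was not searched. Of the 22 contractile genes (Acta2, Tagln and the 20 of a related list), 17 were in the table and 3 had it: Acta2, Myl9 and Srf, the gene of serum response factor itself. The sites are shown to let the forms in Acta2 be read against those of Srf and Myl9, each as 30 bases 5′ to 3′ on the strand of the gene with the matched motif in capitals. Both Acta2 sites have 1 inner position that is not A or T, as has the second Myl9 site, and the others are exact matches, a form held by 1.47% of promoters. The first base of the motif lies 84 and 34 bases before the RefSeq start in Acta2 (34255373), 82 and 62 in Srf (46556162), and 161 and 99 in Myl9 (156775464). The GENCODE span of Acta2 given above begins further out, at 34255590, so both Acta2 sites lie inside that span.
Acta2, chr19:34255438-34255467, reverse strand: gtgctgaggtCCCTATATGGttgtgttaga
Acta2, chr19:34255388-34255417, reverse strand: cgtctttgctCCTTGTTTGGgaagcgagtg
Srf, chr17:46556225-46556254, reverse strand: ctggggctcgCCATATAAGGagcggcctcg
Srf, chr17:46556205-46556234, reverse strand: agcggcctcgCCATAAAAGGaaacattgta
Myl9, chr2:156775293-156775322, forward strand: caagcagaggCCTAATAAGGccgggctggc
Myl9, chr2:156775355-156775384, forward strand: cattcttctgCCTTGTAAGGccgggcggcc

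These matches describe the letters and are not shown to be bound here. The log2 fold changes of the genes that hold them were -0.27 for Acta2, -0.052 for Srf (standard error 0.163) and 0.054 for Myl9 (standard error 0.24), each smaller than its standard error.

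Between genes, levels were compared as CPM per kilobase of merged exon. Vtn was the highest member in the vehicle libraries with 33.5, followed by Rgs5 with 19.5 and Acta2 with 8.40. Pdgfb (5.59), Tagln (5.09) and Pdgfrb (5.00) came next and could not be ordered: Pdgfb was above Tagln in 2 of 5 libraries and Tagln above Pdgfrb in 2 of 5. Acta2 was above Pdgfb in 3 of 5 libraries, which were the 3 vehicle libraries, and below it in both UMBO libraries. Anpep (2.28) and Notch3 (2.26) were level as well, and Kcnj8 (1.34) and Abcc9 (1.13) were lowest. Vtn was above Rgs5, Rgs5 above Acta2, and Pdgfrb above Anpep in 5 of 5 libraries, so this part of the order held in both groups.

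Mural cells sit on endothelial tubes, and the members were therefore also read against 14 endothelial markers, such as Pecam1, Cldn5 and Cdh5, in the same library. The endothelial markers had log2 fold changes of -0.095 to 1.39 with a median of 0.58. Both UMBO libraries were above every vehicle library for 10 of the 14, against 11.5% of all genes. By edgeR 8 were higher at an unadjusted p under 0.05, against 5.3% of all genes, and 0 had an adjusted p under 0.05. By the DESeq2 Wald test 7 had an unadjusted p under 0.05, against 6.77% of all genes, and 0 an adjusted one. Their summed level was 295 to 408 CPM with vehicle and 502 and 574 CPM with UMBO, with none at 0. That endothelial markers were higher in both UMBO libraries was known when the members were proposed, so the comparison describes these libraries and carries no test.

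Relative to these markers the mean of the members was lower in both UMBO libraries. The mean log2 CPM of the 10 members minus that of the endothelial markers was -0.078, -0.28 and -0.20 with vehicle and -0.54 and -0.62 with UMBO. The groups did not overlap, and the difference of -0.40 was larger than the SD of 0.10 with vehicle. Removing any single library, UMBO replicate 2 included, kept it between -0.34 and -0.44, and it was -0.43 without Pdgfb, which endothelial cells make. Pdgfrb alone gave 0.68, 0.24 and 0.38 with vehicle and -0.066 and -0.28 with UMBO, a difference of -0.61. Pdgfb kept its level relative to the endothelial markers within the vehicle range, at 0.49, 0.18 and -0.088 with vehicle and 0.038 and 0.10 with UMBO. The members' own median change of 0.26 was not below that of all genes, so the lower ratio came with the higher endothelial values. Genes near the median of all genes (0.01) would also be lower against markers with a median of 0.58. A lower ratio is therefore not particular to the members. Among the members, Anpep (0.64) and Tagln (0.79) had log2 fold changes above the endothelial median, and the others lay below it.

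**Figure D3:**
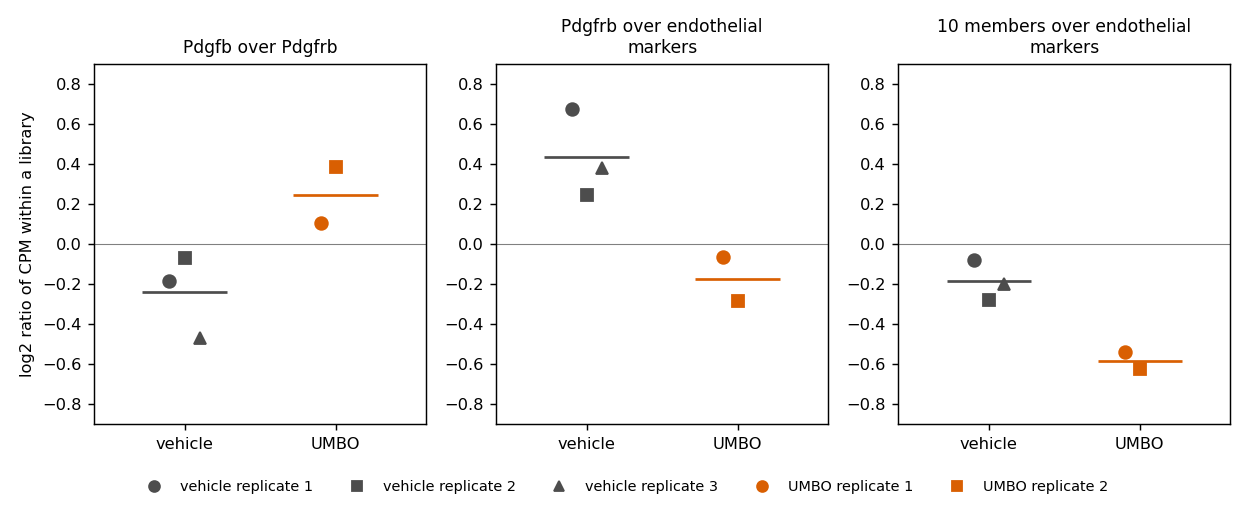
Log2 ratios of CPM within each library (vertical axes): Pdgfb over Pdgfrb, Pdgfrb over the mean of 14 endothelial markers, and the mean of the 10 members over the same markers; points are mice and lines group means. The UMBO mice lie above the vehicle mice in the first panel and below them in the other panels, at -0.54 and -0.62 in the last.

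The genes around the members were read from 5 lists with 71 genes, all of which could be tested. By edgeR 0 of them had an adjusted p below 0.05, and 5 were higher and 2 lower at an unadjusted p under 0.05, near the 5.3% and 2.06% of all genes. The DESeq2 Wald test gave 11 of 71 unadjusted, where 6.77% of all genes passed, and 0 adjusted. From each list the 3 genes with the smallest p are named. Each of the 15 had an adjusted p between 0.497 and 0.623 by edgeR. Removing a UMBO library leaves 1 UMBO mouse, so no p is given for those fits. Without UMBO replicate 1, which leaves the mouse that stood apart, all 15 log2 fold changes kept their sign and were larger in size. Without UMBO replicate 2 all 15 were smaller in size, and those of Pdgfa and Pdgfc changed sign. Mcam (17 bases), Smtn (753), Pdgfa (813), Pdgfc (147) and Edn1 (35) share exonic bases with genes on the other strand, so reads in those stretches are uncertain. The Smtn value is a sum over more than 1 such gene, in which a base shared with several is counted again.

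Of 20 other pericyte genes, 16 had a log2 fold change above 0, with a median of 0.37, and both UMBO libraries were above every vehicle library for 6 and below for 1, where 11.5% and 11.4% of all genes were. The median was 0.22 without vehicle replicate 1. Gja4, a connexin of arterial vessels, was at 1.98, 3.25 and 2.63 CPM with vehicle and 4.01 and 4.397 CPM with UMBO, a log2 fold change of 0.68 (standard error 0.312). Here the UMBO mice were close to each other and both above the vehicle mice. Ifitm1, an interferon-induced membrane protein that immune cells also make, was at 1.11, 4.39 and 2.79 CPM with vehicle and 4.75 and 19.3 CPM with UMBO. Mcam, the adhesion molecule CD146 of mural and endothelial cells, was at 38.0, 90.0 and 32.3 CPM with vehicle and 57.8 and 249 CPM with UMBO. Their log2 fold changes of 2.12 and 1.52 were 0.78 and 0.11 without UMBO replicate 2, and Mcam overlapped between the groups.

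Of 20 other contractile smooth muscle genes, 12 had a log2 fold change above 0 and 8 below, with a median of 0.08. Both UMBO libraries were above every vehicle library for 4 genes and below for 4, and over all genes these shares were evenly split as well, at 11.5% and 11.4%. Without vehicle replicate 1 the median was -0.013. Myh11, the smooth muscle myosin heavy chain and the most specific gene of the list, was at 11.9, 14.2 and 20.1 CPM with vehicle and at 10.8 and 4.92 CPM with UMBO. Both UMBO libraries lay below the vehicle range, with a log2 fold change of -0.97 (standard error 0.413) that was -0.51 without UMBO replicate 2 and -1.67 without UMBO replicate 1. Mustn1, a small nuclear protein of muscle, was on the other side at 1.39, 1.45 and 1.52 CPM with vehicle and 2.52 and 4.90 CPM with UMBO. The change was 1.35 on the log2 scale (standard error 0.364, unadjusted p 0.0101 by edgeR), and 0.79 without UMBO replicate 2. Smtn, a cytoskeletal protein of smooth muscle, was at 11.4, 13.92 and 12.3 CPM with vehicle and 13.99 and 26.9 CPM with UMBO, where UMBO replicate 1 hardly exceeded the highest vehicle library, and its log2 fold change of 0.71 was 0.16 without UMBO replicate 2. The ratio of Myh11 to Acta2 was 0.949, 0.70 and 0.891 with vehicle, 0.749 in the first UMBO library and 0.304 in the other.

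The other PDGF ligands and receptors (5 genes) had a median log2 fold change of 0.22 over 3 genes above 0 and 2 below. Pdgfa, the ligand of the PDGF alpha receptor, was at 51.2, 65.5 and 54.6 CPM with vehicle and 56.6 and 82.6 CPM with UMBO. Pdgfc, a further ligand of that receptor, was at 7.62, 7.74 and 8.50 CPM with vehicle and 8.38 and 4.67 CPM with UMBO. Without UMBO replicate 2 their log2 fold changes turned from 0.29 to -0.012 and from -0.29 to 0.075. Pdgfrl, a receptor-like gene, was at 1.18 to 1.70 CPM with vehicle and 1.79 and 2.37 CPM with UMBO. Pdgfrl was the 1 gene of this list whose UMBO values both exceeded the vehicle range, where 11.5% of all genes did. Its log2 fold change of 0.48 was 0.27 without UMBO replicate 2. The median of the list was 0.047 without vehicle replicate 1, -0.53 without UMBO replicate 1 and 0.092 without UMBO replicate 2.

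Among 13 other NOTCH pathway genes the median log2 fold change was 0.05, with 8 genes above 0 and 5 below. Both UMBO libraries were above every vehicle library for 4 genes and below for 0, where 11.5% and 11.4% of all genes were. Jag1, a ligand through which endothelial cells signal to NOTCH3 on mural cells, was at 9.39, 13.9 and 12.7 CPM with vehicle and 16.0 and 22.5 CPM with UMBO. The log2 fold change was 0.69 (standard error 0.26), with an unadjusted p of 0.0387 by edgeR, and it was 0.42 without UMBO replicate 2. Notch4, the endothelial receptor, was at 6.30 to 8.83 CPM with vehicle and 9.58 and 14.8 CPM with UMBO. Hes1, a NOTCH target gene, was at 8.63 to 10.96 CPM with vehicle and 11.7 and 18.2 CPM with UMBO. These genes shared the arrangement of Pdgfb, with UMBO replicate 2 highest and both UMBO mice above the vehicle mice. Without UMBO replicate 2 the log2 fold changes of Notch4 and Hes1 fell from 0.67 to 0.32 and from 0.57 to 0.22. Heyl (-0.33), Hey1 (-0.12), Hey2 (-0.14) and Nrarp (-0.19), likewise NOTCH target genes, went the other way from Hes1, as did the ligand Jag2 (-0.22). Nrarp shares 2051 exonic bases with a gene on the other strand. The median of the list was -0.043 without vehicle replicate 1, and 0.10 and 0.14 without UMBO replicates 1 and 2.

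Genes of the potassium channel family and of vascular tone (13 genes) had 11 log2 fold changes below 0 and a median of -0.43. Both UMBO libraries were below every vehicle library for 4 and above for 2, where 11.4% and 11.5% of all genes were. The median was -0.88 without UMBO replicate 1 and -0.23 without UMBO replicate 2. Edn1, the gene of the vasoconstrictor endothelin-1 made by endothelial cells, was at 1.79, 2.02 and 2.40 CPM with vehicle and 3.43 and 5.48 CPM with UMBO. The change was 1.10 on the log2 scale (standard error 0.326, unadjusted p 0.0148 by edgeR), and 0.73 without UMBO replicate 2. Gucy1a1, a subunit of the nitric oxide receptor, was at 128, 93.0 and 111 CPM with vehicle and 77.5 and 38.4 CPM with UMBO. Abcc8, the counterpart of Abcc9 in neuronal channels, was at 33.3, 22.2 and 26.1 CPM with vehicle and 19.2 and 9.45 CPM with UMBO. Their log2 fold changes of -0.93 and -0.92 were -0.51 and -0.50 without UMBO replicate 2. Neurons also express Gucy1a1 and Abcc8, and the neuronal markers were lowest in the library where both genes were lowest. The part of the neurons in these values was not tested.

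**Figure D4:**
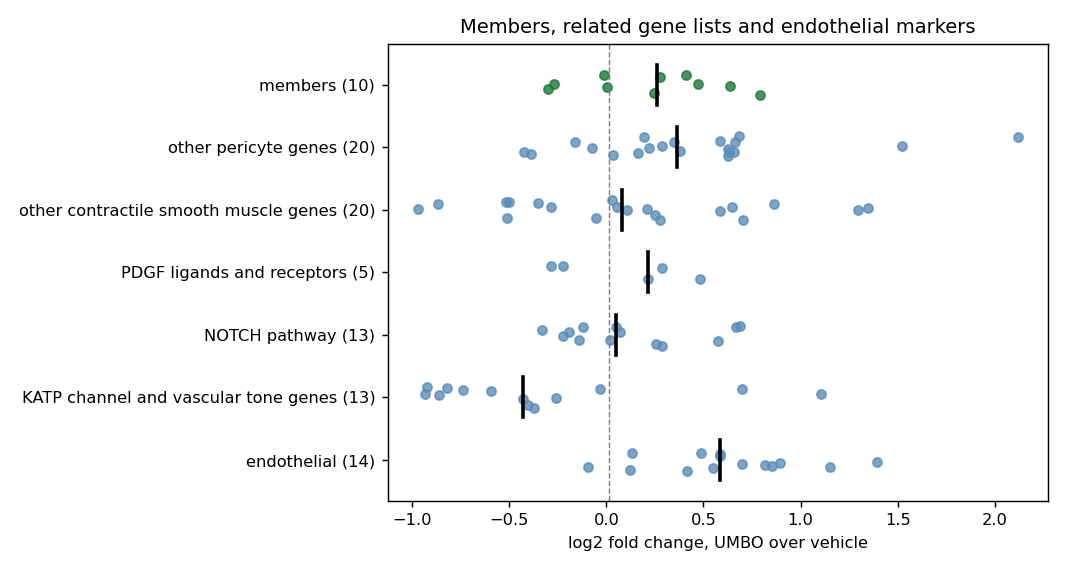
Log2 fold change, UMBO over vehicle (horizontal axis), of each gene in the members, the 5 related lists and the endothelial markers, with the number of genes in brackets; black bars are list medians and the dashed line is the median of all genes. The members' median is 0.26, between the endothelial median of 0.58 and the dashed line at 0.01.

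Markers of other cells that can carry some of the members were measured in the same libraries. The 8 fibroblast markers, a cell type that likewise carries Pdgfrb, summed to 89.5 to 138 CPM with vehicle and 212 and 245 CPM with UMBO. Both UMBO libraries were above every vehicle library for 6 of them, against 11.5% of all genes. Platelet markers (5 genes), which bear on Pdgfb since platelets store PDGF, summed to 3.38 to 4.39 CPM with vehicle and 4.64 and 8.60 CPM with UMBO. Red blood cell markers (5 genes) summed to 71.8 to 165 CPM with vehicle and 181 and 217 CPM with UMBO. Astrocyte markers (6 genes) summed to 3224 to 4490 CPM with vehicle and 3067 to 5085 CPM with UMBO, a sum that is mostly Slc1a2 in the vehicle libraries. Gfap, the astrocyte intermediate filament and named here after its values were seen, was at 214, 515 and 388 CPM with vehicle and 1396 and 1636 CPM with UMBO. It had a log2 fold change of 2.03, an adjusted p of 0.497 by edgeR and one of 0.00402 by DESeq2. Choroid plexus markers (5 genes) lay at 794 to 823 CPM with vehicle and 490 to 842 CPM with UMBO. None of these markers was at 0 in any library. Their part in the levels of the members was not tested.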

How the data were processed

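Reads were mapped by the authors to GRCm38 using STAR 2.7.2a, whose read counts per Ensembl gene were deposited without normalization, as 1 table for each library. The annotation release and the strand setting of the counting are not given in the sources used here. The 5 libraries are from separate mice, grouped by the labels.

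Symbols and positions were taken from GENCODE M21, which matched 55480 of 55573 identifiers. Counts were TMM-normalized, filtered with filterByExpr and tested with edgeR 4.0.16 (R 4.3.3) without a covariate. P-values were adjusted by Benjamini-Hochberg over all 23592 genes, with a threshold of 0.05. Intervals of log2 fold changes are 95%. Ratios used log2 CPM with a prior count of 2. DESeq2 1.42.0 was an alternative, besides other scalings and filters, the replicate number as a block and each library left out. The scripts were tested on simulated data.

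The members and lists were chosen with earlier results of these data known. Named were all 10 members, the 3 genes with the smallest p of each of 5 related lists, and endothelial markers by count, median and range. Srf, Myl9, Gfap, Slc1a2, Heyl, Hey1, Hey2, Nrarp, Jag2 and the endothelial markers given as examples were named outside this rule.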

Additional observations from a re-analysis of the deposited data

How the results depend on the processing

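The number of members past the threshold was 0 under the 11 alternatives. All genes past it numbered 0, but 40 with the DESeq2 Wald test and 2337 with the replicate block, and between 0 and 4543 (without UMBO replicate 1) with 1 library left out. Leaving out a UMBO library leaves 1 mouse, assumed to vary like the vehicle mice. With the replicate block the smallest adjusted p of a member was 0.0524, for Tagln (edgeR). Its unadjusted p there was 0.00542, that of Anpep 0.0213 and that of Pdgfb 0.0533 (edgeR). In that fit 3396 of 23592 genes were higher and 2738 lower at an unadjusted p under 0.05. Replicate numbers mark no stated litter or day, and only 2 are shared (correlations of deviations 0.453 and 0.76), so they do not establish pairs. The median log2 fold change of the members lay between 0.11 (without UMBO replicate 2) and 0.33 (without vehicle replicate 3) with 1 library left out. Without vehicle replicate 1 or 3, 0 members had an unadjusted p under 0.05 by edgeR. Without vehicle replicate 2 there was 1, Pdgfb, where 2164 of 23120 genes were higher and 510 lower at that p. With a vehicle library left out, members whose groups do not overlap numbered 2 to 4, and their share over all genes was not counted. Without a UMBO library only 1 UMBO mouse is left, so no such counts are given.

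Directions turned for Notch3 with DESeq2's size factors (-0.0042), no filter (-0.017) and DESeq2 (-0.018), and between -0.49 and 0.35 with 1 library left out. For Pdgfrb they turned with library size only (0.10), the stricter filter (0.026) and the replicate block (0.033), and between -0.078 and 0.031 with 1 library left out. With 1 library left out Rgs5 ranged from -0.48 to 0.72, Abcc9 from -0.87 to 0.091 and Tagln from -0.22 to 1.35. Pdgfa ranged from -0.012 to 0.50 and Pdgfc from -0.80 to 0.075. With library size only the median of all genes rose from 0.01 to 0.13, and the member values of that setting are to be read against it. The cause was not tested.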

Other observations

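UMBO replicate 2 was more than 1.5 times UMBO replicate 1 for Tagln (3.01 times) and Anpep (2.03 times), and UMBO replicate 1 was more than 1.5 times UMBO replicate 2 for Rgs5, Abcc9 and Notch3, where UMBO replicate 2 was at 0.445, 0.526 and 0.571 times the level of UMBO replicate 1. By the same measure 6 of the 20 other pericyte genes were higher and 4 lower, and 7 of the 20 other contractile genes were higher and 4 lower. Over all genes tested 27.6% were higher and 24.97% lower, so the 2 and 3 of 10 members are near the share of all genes. The 4 other pericyte genes that were lower in UMBO replicate 2 were Atp13a5, Enpep, Aspn and Zic1, named after their values were seen. Vehicle replicate 1 was the lowest library for 5 members (Pdgfrb, Anpep, Vtn, Acta2 and Tagln) and UMBO replicate 2 the highest for 5 (Pdgfb, Kcnj8, Anpep, Vtn and Tagln).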
